A study of Mus musculus with 21 samples.

Results

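The matrix metalloproteases (MMPs), the ADAMTS proteases and ADAMTS-like proteins, the tissue inhibitors of metalloproteases (TIMPs) and the tolloid proteinases were followed in the pressure-overloaded mouse heart. Their genes were taken by symbol: every Mmp, Timp, Adamts and Adamtsl gene followed by its number, with Bmp1, Tll1 and Tll2. The rule found 54 of the 24054 genes in the deposited table, and 42 of the 54 had enough counts to be tested. Left ventricle myocardium of C57BL/6J mice was sequenced in 21 libraries, 1 per animal, each animal with its own ear tag. The molecule and the kit are labelled total RNA, while the sample titles say mRNA-seq. Of these, 5 came from sham-operated mice and 5 from mice with transverse aortic constriction (TAC, a narrowing of the aorta that overloads the left ventricle), and neither group is labelled with a drug. A further 5 came from TAC mice given sildenafil, an inhibitor of the cyclic GMP phosphodiesterase PDE5A, and 6 from TAC mice given PF-04449613, an inhibitor of the cyclic GMP phosphodiesterase PDE9A. Both drugs were given for 4 weeks from 1 week after surgery. The doses, the vehicle and the age and sex of the mice were not known here. The libraries hold whole ventricular tissue, so fewer cells of a type and less RNA per cell cannot be told apart.

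MMPs are zinc proteases that cut collagens, elastin and other matrix proteins, and most are secreted as inactive proenzymes. The TIMPs block their active sites, and TIMP2 also bridges the membrane-bound MMP14 to the proenzyme of MMP2, which MMP14 then activates. ADAMTS proteases are secreted and bind the matrix: some cut the proteoglycans versican and aggrecan, and others remove the N-terminal propeptide of fibrillar procollagens. Of the tolloid proteinases, BMP1 and TLL1 remove the C-terminal propeptide, and BMP1 also activates lysyl oxidase, while TLL2 is not known as a procollagen C-proteinase. In the heart these enzymes are known for their part in the turnover of the matrix during remodelling.

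The libraries held 22.7 to 41.0 M counts. Cardiomyocyte markers had the highest sum of the cell type marker lists in every library. The summed level of 10 such markers was 109400 to 125000 counts per M (CPM, after TMM scaling) in sham and 55450 to 96550 CPM in TAC. In TAC 6 of these 10 fell and 0 rose. The summed level of 10 fibroblast markers was 2297 to 2779 CPM in sham and 3417 to 4211 CPM in TAC, and 7 of the 10 rose. Activated fibroblast markers summed to 276 to 385 CPM in sham and 937 to 5826 CPM in TAC, and 9 of 10 rose, all but Acta2. The 9 macrophage markers in the table summed to 352 to 476 CPM in sham and 424 to 465 CPM in TAC, and 1 of them (Cd163) fell. Neutrophil markers were near 0, with sums of 4.61 to 14.1 CPM over the 21 libraries. Cartilage, tendon and valve markers summed to 6.38 to 23.1 CPM in sham and 86.2 to 307 CPM in TAC, and 5 of 5 tested rose. Smooth muscle and pericyte markers summed to 3230 to 3466 CPM in sham and 3363 to 5445 CPM in TAC. Of the 10, 3 rose and 1 fell. Des was the largest part of this sum, with means of 1791 CPM in sham and 3047 CPM in TAC. The next largest went the other way, Abcc9 from 881.7 to 500.2 CPM and Rgs5 from 344.4 to 311.6 CPM. The higher sum in TAC follows Des, so it gives no measure of smooth muscle cells or pericytes. The part of these cell types in the results below was not tested.

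Library 6 of the PDE9A inhibitor group stood apart from the other overloaded hearts before any comparison. Its activated fibroblast markers summed to 359 CPM, within the sham range, and its Myh7 (beta myosin heavy chain, which the overloaded mouse ventricle re-expresses) was 432 CPM, against 198 to 326 CPM in sham and 2783 to 8670 CPM in TAC. Libraries 1 and 2 of the PDE5A inhibitor group were also low in Myh7, at 380.1 and 419.8 CPM, and library 5 of the PDE9A inhibitor group had 592 CPM. Ribosomal RNA precursor (Rn45s) took 0.326% and 0.416% of the counts in libraries 1 and 4 of the PDE9A inhibitor group and 0.192 to 0.278% in the others. Whether library 6 is a heart that responded little or a mislabelled sample cannot be told apart from these files, and every value of the PDE9A inhibitor group is subject to that. Counts of called genes that include these libraries are given with and without them.

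Of the MMP genes 10 sit side by side on chromosome 9 (GRCm38 7272514 to 7699585), the cluster that holds the collagenases, stromelysins, matrilysin, macrophage elastase and enamelysin. Apart from Mmp3 it was at or near 0 in these hearts. Mmp1a, Mmp1b, Mmp7 and Mmp20 had 0 counts in all 21 libraries, and Mmp8, Mmp10 and Mmp27 reached at most 8, 1 and 13 counts in a library. Of the 10 genes 3 could be tested: Mmp3 (stromelysin 1) at 7.59 ± 3.40 CPM in sham and 11.1 ± 1.01 CPM in TAC, Mmp13 (the main interstitial collagenase of the mouse) at 0.909 and 0.874 CPM, and Mmp12 (macrophage elastase) at 0.615 and 0.406 CPM (means; SD and n = 5 for Mmp3). None was called in any of the 6 comparisons. The 100 bases upstream of the annotated starts are shown for 5 of these genes because most promoters of the cluster, that of Mmp3 included, share a motif that the other promoters of the set lack. They are RefSeq promoters of GRCm38.p6, 5′ to 3′ on the gene's strand, with matches to TGANTCA in capitals. These are the letters of an AP-1 element with any base allowed in the middle, where the element itself has G or C. The pattern is its own reverse complement.

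Mmp13 (chr9:7272414-7272513, plus strand): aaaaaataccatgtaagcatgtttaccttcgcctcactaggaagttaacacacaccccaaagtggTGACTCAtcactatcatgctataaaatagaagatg

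Mmp3 (chr9:7445722-7445821, plus strand): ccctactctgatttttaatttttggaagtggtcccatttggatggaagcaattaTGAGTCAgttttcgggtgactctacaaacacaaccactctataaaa

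Mmp10 (chr9:7502242-7502341, plus strand): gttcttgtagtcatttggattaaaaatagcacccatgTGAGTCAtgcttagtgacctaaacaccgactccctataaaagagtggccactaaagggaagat

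Mmp7 (chr9:7691990-7692089, plus strand): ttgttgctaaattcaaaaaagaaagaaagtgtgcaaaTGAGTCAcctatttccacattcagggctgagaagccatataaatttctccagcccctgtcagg

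Mmp8 (chr9:7558329-7558428, plus strand): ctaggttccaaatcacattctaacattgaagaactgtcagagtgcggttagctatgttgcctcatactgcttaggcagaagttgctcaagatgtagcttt

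A TGANTCA match lay in the 100 bases of 8 of the 10 cluster genes, all but Mmp8 and Mmp27, at 35 to 95 bases before the start. The match of Mmp20 has A in the middle, and the others have G or C. It lay in 0 of the 28 other genes of the set that have a RefSeq promoter, and in 2.73% of 32851 promoters of all genes. Mmp7 and Mmp12 have 2 annotated starts each, and the match is at 1 of them. GGGCGG or its reverse complement CCGCCC (a GC box) lay in 0 of the 10 cluster genes, in 18 of the other 28 and in 24.7% of all promoters. Among the genes whose RNA differed in TAC and that have a RefSeq promoter, GC boxes lay in 7 of 9 that rose and 2 of 5 that fell, and TGANTCA in none. Among those tested and not called, GC boxes lay in 6 of 13. These 13 include the cluster genes Mmp3, Mmp12 and Mmp13, which have none. The same windows of Mmp14, Mmp28, Timp1 and Timp4 follow as examples outside the cluster, with GC boxes in capitals.

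Mmp14 (chr14:54431498-54431597, plus strand): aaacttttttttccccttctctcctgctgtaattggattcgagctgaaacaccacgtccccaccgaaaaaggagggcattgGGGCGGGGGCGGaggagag

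Mmp28 (chr11:83463041-83463140, minus strand): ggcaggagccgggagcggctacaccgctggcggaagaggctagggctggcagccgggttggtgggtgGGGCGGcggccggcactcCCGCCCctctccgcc

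Timp1 (chrX:20870066-20870165, plus strand): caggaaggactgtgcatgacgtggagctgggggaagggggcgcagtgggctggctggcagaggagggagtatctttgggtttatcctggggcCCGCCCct

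Timp4 (chr6:115252206-115252305, minus strand): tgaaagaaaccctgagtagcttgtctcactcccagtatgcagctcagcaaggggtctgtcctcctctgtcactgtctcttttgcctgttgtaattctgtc

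These 4 were not chosen to represent the set, and the motif did not sort the genes by direction. Mmp23 and Adamtsl5 rose with no GC box in this window, as did Mmp14, Mmp28 and Timp1 with one or more, while Adamts14 and Adamts3 fell with one or more and Timp4 with none. A match is a run of letters and no evidence of binding. For 16 of the 54 genes, among them Mmp2, Mmp9, Bmp1, Adamts4, Adamts5, Adamts7 and Adamts8, no RefSeq promoter was used here.

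TAC against sham asks what overload alone did to this system. Of the 42 genes tested 14 rose and 6 fell, which is 47.6%, where 25.2% of all 14135 genes tested were called (12.2% higher and 13% lower). The median log2 fold change of the 42 was 0.35, and that of all genes was near 0 (-0.001). The TAC and sham libraries did not overlap in 14 of the 42, and in 16.5% of all genes. At an unadjusted p under 0.05 stood 23 of the 42, against 39.6% of all genes. The rises included the gelatinase Mmp2, the membrane-bound Mmp14 and Mmp23, the inhibitors Timp1 and Timp2, 3 proteoglycan-cleaving ADAMTS, 3 ADAMTS-like genes, Adamts2 and Bmp1. Falls were seen in Timp4, Mmp15, Adamts3, Adamts7, Adamts14 and Tll2. Most classes held both risen and uncalled or fallen members.

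**Figure D1:**
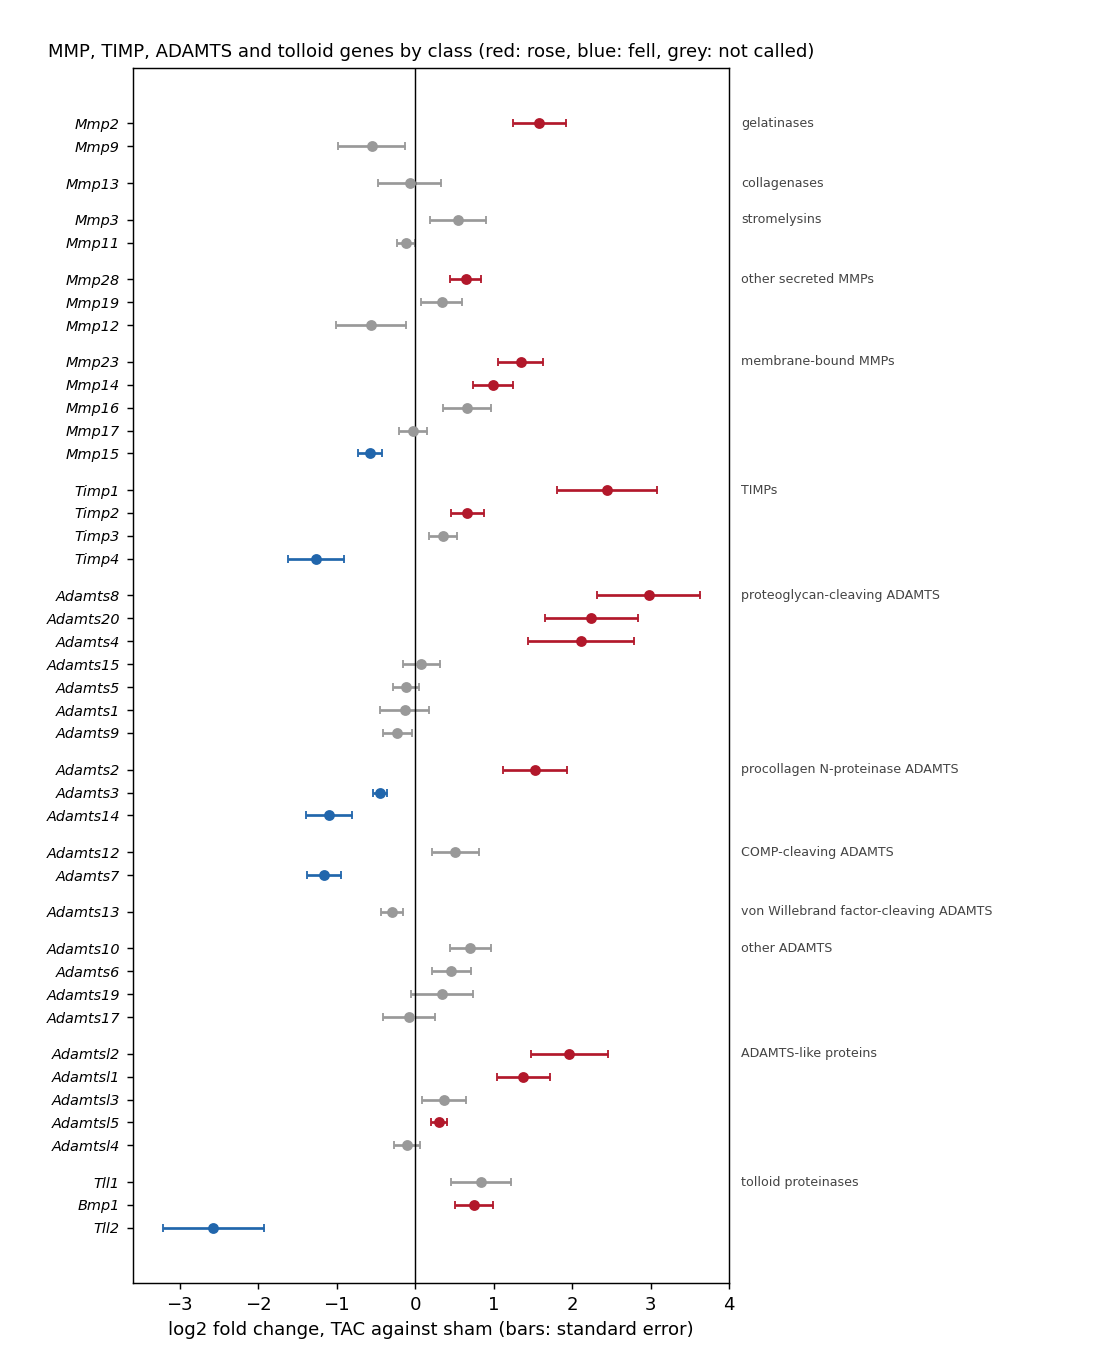
Log2 fold change of TAC against sham for the 42 tested genes, grouped by class, with bars for the standard error. Red points rose, blue points fell and grey points were not called: the TIMPs, membrane-bound MMPs, procollagen N-proteinases and tolloid proteinases each hold genes on both sides of 0.

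Mmp2 (gelatinase A, ENSMUSG00000031740.8, chr8:92827291-92853420) was the most abundant risen protease. It measured 56.7, 67.4, 58.1, 58.7 and 71.7 CPM in sham libraries 1 to 5 and 181, 159.8, 216, 228 and 149 CPM in TAC libraries 1 to 5. The lowest TAC library was above the highest sham library by more than the whole sham range. The log2 fold change was 1.58 (SE 0.34; adjusted p = 0.00494, edgeR's quasi-likelihood test with Benjamini-Hochberg adjustment, as for every adjusted p here). Mmp9, the other gelatinase and one made largely by leukocytes, was scarce at 1.02 ± 0.64 CPM in sham and 0.708 ± 0.250 CPM in TAC (SD, n = 5 each), and its log2 fold change of -0.56 (SE 0.43) was not called (adjusted p = 0.352).

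Mmp14 (MT1-MMP, the activator of the MMP2 proenzyme; chr14:54431612-54445364) also rose. Its sham libraries held 8.93, 12.5, 12.3, 12 and 20.6 CPM and its TAC libraries 28.3, 20.2, 26.9, 36.7 and 19.3 CPM. The groups overlapped only through sham library 5. Its log2 fold change was 0.99 (SE 0.25; adjusted p = 0.0108). Mmp23, a protease anchored by its N-terminal end (chr4:155650655-155653384), held 5.37, 5.99, 5.74, 4.72 and 5.69 CPM in sham and 12.7, 8.35, 17.9, 19.5 and 11.1 CPM in TAC. These groups did not overlap, and it rose by a log2 fold change of 1.34 (SE 0.29; adjusted p = 0.0052). Mmp15 (MT2-MMP; chr8:95352268-95375080) went the other way, from 109, 107, 89.2, 114 and 109 CPM in sham to 73.1, 80.3, 63.3, 58.5 and 78.0 CPM in TAC. Every TAC library was below every sham library (log2 fold change -0.58, SE 0.15, adjusted p = 0.0121). Of the remaining membrane-bound MMPs, Mmp16 (0.66, SE 0.31, adjusted p = 0.117) and Mmp17 (-0.03, SE 0.18) were not called, and Mmp24 and Mmp25 reached at most 14 and 8 counts in a library. Mmp28 (epilysin, a secreted MMP) rose from 2.62 ± 0.27 to 4.10 ± 0.88 CPM (SD, n = 5 each), a log2 fold change of 0.64 (SE 0.20; adjusted p = 0.0242), with no overlap between the groups. That call was lost without sham library 1, sham library 4 or TAC library 1 (adjusted p = 0.0548, 0.0612 and 0.0777). Mmp11, Mmp19 and Mmp12 were not called.

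The 4 TIMPs did not move together. Timp1, the inducible member (chrX:20870166-20874735), held 2.12, 3.85, 3.95, 2.10 and 3.72 CPM in sham and 10.6, 2.69, 22.7, 43.6 and 5.47 CPM in TAC. TAC library 2 lay within the sham range and TAC library 4 was far above the rest. It rose by a log2 fold change of 2.44 (SE 0.63; adjusted p = 0.0115), and without TAC library 4 the change was 1.74 and missed the threshold (adjusted p = 0.0552). Timp2 (chr11:118301069-118355740) held 61.5, 79.4, 66.5, 67.9 and 74.4 CPM in sham and 103, 98.8, 139, 124 and 88.5 CPM in TAC. The groups did not overlap, and the rise was small (0.66, SE 0.21, adjusted p = 0.0294). The Timp2 call was lost on leaving out any one of sham libraries 1, 3 and 4 and TAC libraries 3 and 4, with adjusted p up to 0.0805. Timp3, the TIMP that binds the matrix and also blocks ADAM and ADAMTS proteases (chr10:86300372-86349506), held 246, 230.1, 232, 190.2 and 164 CPM in sham and 223, 221, 362, 299 and 252 CPM in TAC. These groups overlapped, and its log2 fold change of 0.35 (SE 0.18) was not called (adjusted p = 0.155). Timp4, the TIMP known for its high level in heart (chr6:115241892-115252205), held 35.8, 28.2, 45.9, 20.04 and 25.9 CPM in sham and 16.8, 19.1, 7.13, 7.59 and 14.4 CPM in TAC. Every TAC library was below every sham library, and it fell, at -1.27 on the log2 scale (SE 0.35; adjusted p = 0.0161). Without TAC library 3 or 4 the fall was -1.10 or -1.11 and missed the threshold (adjusted p = 0.0506 and 0.0538). Timp4 lies inside Syn2 on the opposite strand with exons that overlap, and the sources used here do not give the strand setting of the counting, so their reads cannot be told apart, which holds for every gene of the set with such an overlap. Syn2 itself stood at 2.93 CPM in sham and 3.78 CPM in TAC and was not called (adjusted p = 0.26).

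**Figure D2:**
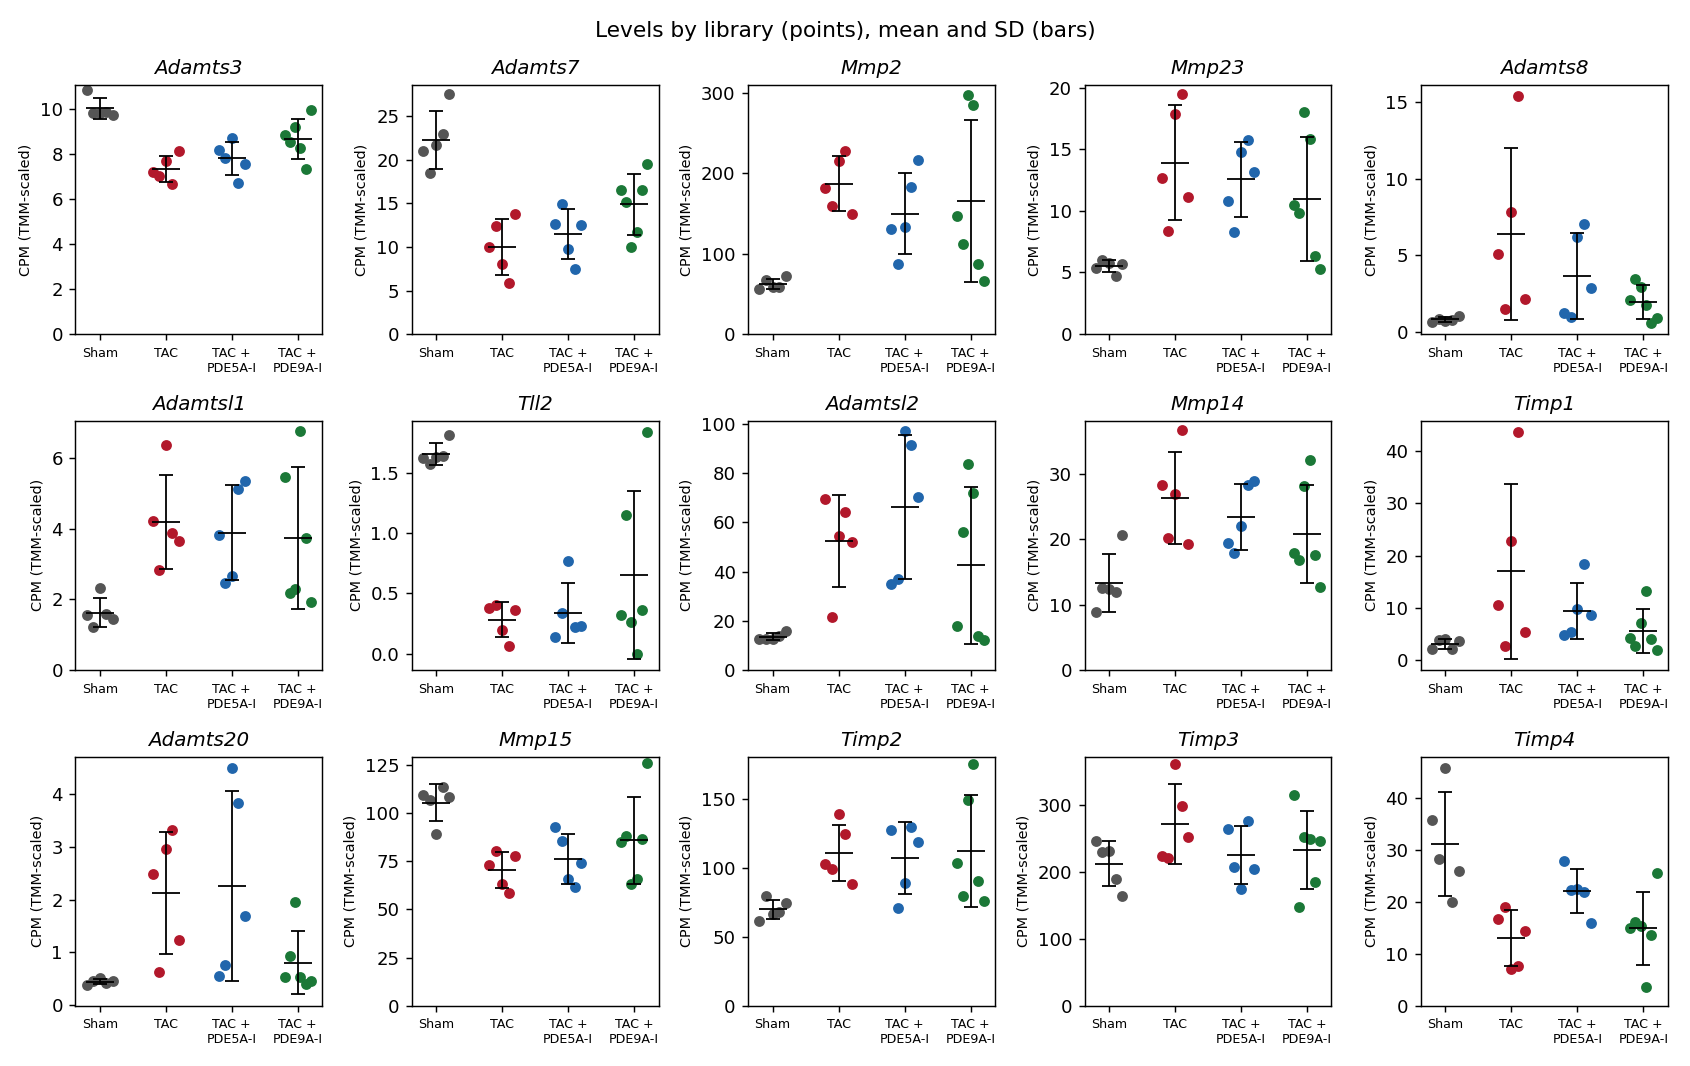
Level in CPM of 15 genes in every library (points), with the mean and SD of each group (bars), in sham (n = 5), TAC (n = 5), TAC with the PDE5A inhibitor (n = 5) and TAC with the PDE9A inhibitor (n = 6). Timp1 and Adamts8 spread widely within TAC, and Adamts3, Adamts7, Tll2 and Timp4 show TAC libraries below every sham library.

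Levels per length put the family in order. Per kb of exon, Timp3 led in sham at 26.1 ± 4.17 CPM per kb, followed by Mmp15 (19.5 ± 1.75), Mmp2 (18.6 ± 1.97), Timp2 (17.96 ± 1.799), Adamts1 (16.1 ± 8.68) and Adamtsl5 (14.1 ± 0.80, all SD, n = 5). The levels from Mmp15 down to Adamts1 differed by less than their spread. In TAC the order was Mmp2 (55.4 ± 10.2 CPM per kb), Timp3 (33.3 ± 7.32), Timp2 (28.4 ± 5.25) and Timp1 (19.2 ± 18.8), with Timp3 and Timp2 within each other's spread. The place of Timp1 rests on TAC library 4: without it Timp1 was at 11.7 ± 9.98 CPM per kb (SD, n = 4). That was below Adamtsl5 (16.6 ± 1.39), Mmp15 (13.7 ± 1.40) and Adamts1 (12.5 ± 4.09), whose means all lay within the wide spread of Timp1. Within the MMP genes Mmp2 took 35.4 ± 2.03% of the summed level per kb in sham and 60.7 ± 3.42% in TAC. Mmp15 went from 37.5 ± 3.88% to 14.8 ± 3.71%, so the near-equal pair of the sham heart became a single leading gene. Within the TIMPs, Timp1 took 6.68% in sham (4.38 to 8.75%) and 19.5% in TAC (5.17 to 41.2%), while Timp4 took 9.89% (7.3 to 13.5%) and 3.16% (1.08 to 5.52%). Timp3 (49.2 and 41.6%) and Timp2 (34.2 and 35.7%) had the larger mean shares, but in TAC library 4 Timp1 took 41.2%, above Timp3 (30.8%) and Timp2 (26.8%). The length behind each value is the summed exonic length of the annotation, not the isoforms in these hearts.

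**Figure D3:**
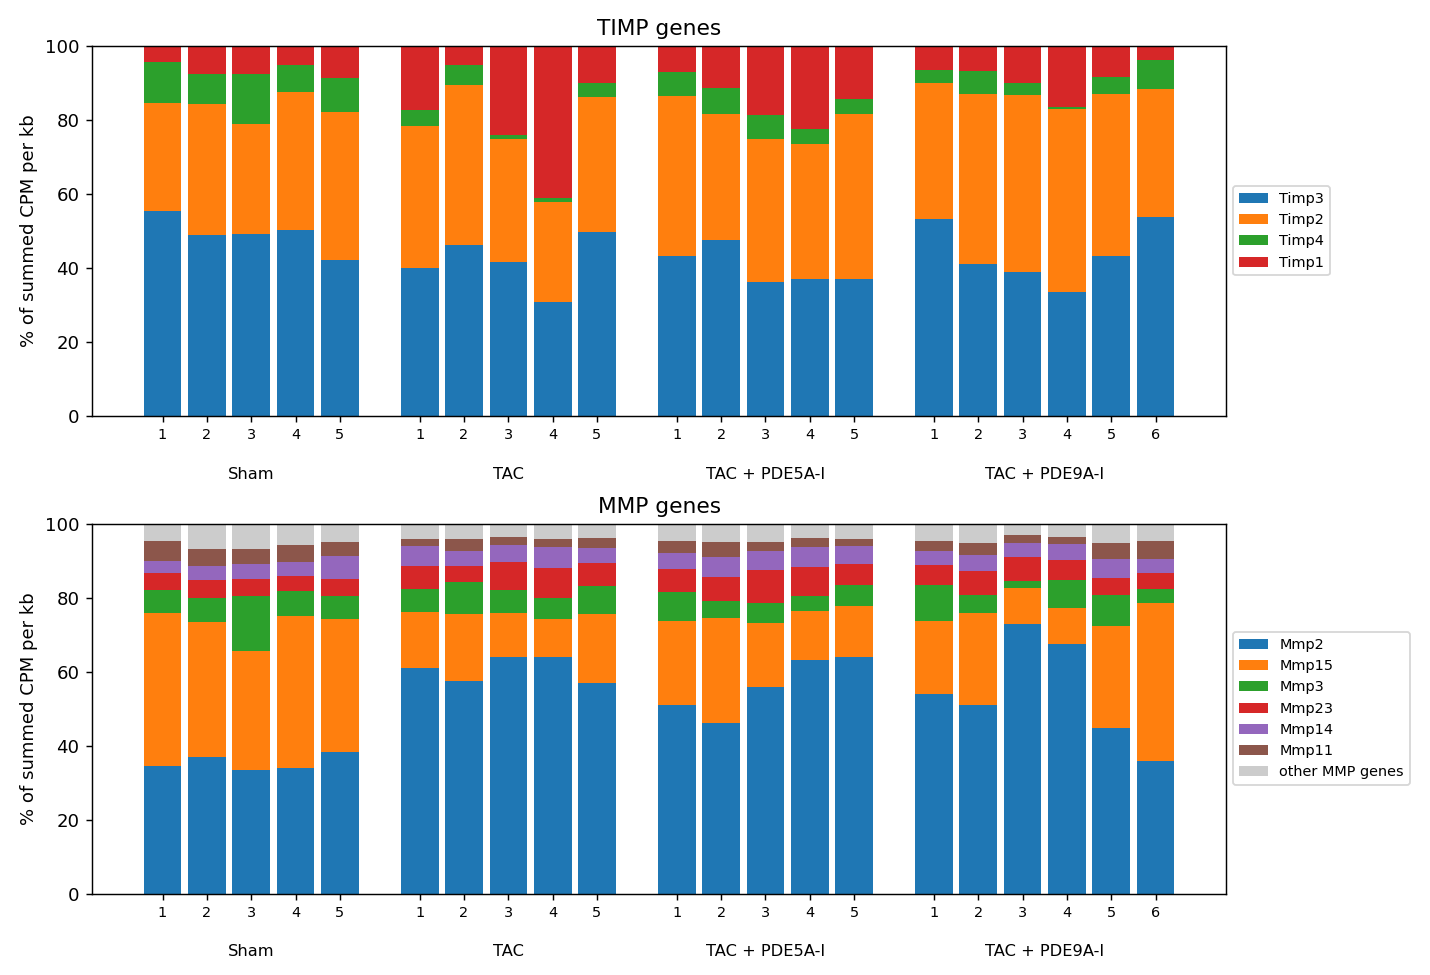
Share of each gene in the summed CPM per kb of exon of the 4 TIMP genes (top) and of the MMP genes (bottom), 1 bar per library. Timp1 is the widest in TAC library 4 at 41.2%, and Mmp2 takes 56.9 to 64.1% of the MMP sum in TAC against 33.5 to 38.2% in sham.

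Among the ADAMTS that cut proteoglycans, scarce genes rose and the abundant ones were not called. Adamts8 (chr9:30942562-30963838) held 0.643, 0.876, 0.708, 0.796 and 1.04 CPM in sham and 5.08, 1.53, 7.83, 15.4 and 2.16 CPM in TAC. The groups did not overlap although TAC spread widely, and it rose by a log2 fold change of 2.98 (SE 0.66; adjusted p = 0.00556). Adamts20, a versican-cutting protease (chr15:94270163-94465418), held 0.378, 0.455, 0.521, 0.425 and 0.465 CPM in sham, which is 10 to 16 counts, and 2.47, 0.629, 2.95, 3.32 and 1.24 CPM in TAC. It too did not overlap and rose by 2.24 (SE 0.59; adjusted p = 0.012). Adamts4 (aggrecanase 1; chr1:171250421-171260637) had a mean of 1.06 ± 0.66 CPM in sham and 4.51 ± 5.00 CPM in TAC (SD, n = 5 each), and TAC library 4 alone held 12.98 CPM. It was called at a log2 fold change of 2.11 (SE 0.68; adjusted p = 0.0291), but without TAC library 4 the change was 1.21 and was not called (adjusted p = 0.177). The call was also lost on leaving out any one of sham libraries 1, 3 and 4 and TAC library 1, with adjusted p of 0.0523 to 0.0726, and in a fit of the 2 groups alone (adjusted p = 0.0517). The abundant Adamts1 (85.1 ± 46.0 CPM in sham and 77.5 ± 31.0 CPM in TAC), Adamts5 (aggrecanase 2, 63.3 ± 7.20 and 58.3 ± 8.94 CPM) and Adamts9 (36.1 ± 6.53 and 30.8 ± 8.54 CPM) were not called. Their log2 fold changes were -0.13 (SE 0.32) for Adamts1, -0.12 (SE 0.17) for Adamts5 and -0.23 (SE 0.18) for Adamts9. Adamts15 was not called either (0.08, SE 0.23). In all, 3 of the 7 members of the class rose and none fell.

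The 3 procollagen N-proteinases split. Adamts2, the main N-proteinase of type I procollagen (chr11:50602084-50807573), rose from 29.6 ± 5.71 to 85.1 ± 39.0 CPM (SD, n = 5 each), or 1.53 on the log2 scale (SE 0.41; adjusted p = 0.013), with no overlap. Adamts3, which acts on procollagen and on the lymphatic growth factor VEGF-C (chr5:89677087-89883334), fell from 10.9, 9.81, 9.83, 9.87 and 9.72 CPM in sham to 7.18, 7.01, 7.70, 6.67 and 8.12 CPM in TAC. The change was small (-0.45, SE 0.08) but the libraries were tight and apart, and its adjusted p of 0.00293 was the lowest of the 42. Adamts14 fell too (1.07 ± 0.47 to 0.488 ± 0.171 CPM, or -1.10 on the log2 scale, SE 0.29, adjusted p = 0.0127), on 17 to 46 counts per sham library and 5 to 20 counts per TAC library, and the groups overlapped.

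Adamts7, a protease known to cut cartilage oligomeric matrix protein (chr9:90163069-90208071), held 21.03, 18.5, 21.7, 22.9 and 27.5 CPM in sham and 9.96, 12.4, 8.02, 5.85 and 13.8 CPM in TAC. Every TAC library was below every sham library, with a fall of -1.16 on the log2 scale (SE 0.22; adjusted p = 0.00294). Its known substrate gene Comp went the opposite way, from 5.85 ± 4.95 to 152 ± 85.5 CPM. Exons of Adamts7 overlap those of Tbc1d2b on the opposite strand, which stood at 25.9 CPM in sham and 30.5 CPM in TAC and was not called (adjusted p = 0.0909). Adamts12, which cuts the same substrate, was not called (0.51, SE 0.30), nor was Adamts13, the von Willebrand factor protease (-0.29, SE 0.14). Of the other ADAMTS, Adamts10, which binds fibrillin microfibrils, came nearest to a call (16.1 ± 3.45 to 26.1 ± 4.61 CPM, 0.70, SE 0.26, adjusted p = 0.0541), and DESeq2 called it there and in both inhibitor groups against sham. The remaining Adamts6, Adamts17 and Adamts19 were not called.

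The ADAMTS-like proteins have the binding domains of the family but no protease. Adamtsl2, which binds the latent TGF-beta complex and fibrillin (chr2:27079379-27108981), held 12.6, 12.4, 12.7, 13.7 and 15.99 CPM in sham and 69.7, 21.6, 54.4, 64.3 and 51.9 CPM in TAC. The groups did not overlap, and it rose by a log2 fold change of 1.96 (SE 0.49; adjusted p = 0.00979). Adamtsl1 (punctin; chr4:85514172-86428385) held 1.55, 1.23, 2.31, 1.59 and 1.43 CPM in sham and 4.23, 2.83, 6.39, 3.88 and 3.67 CPM in TAC, again without overlap (1.38, SE 0.34, adjusted p = 0.00906). Adamtsl5 rose slightly, from 66.7 ± 3.77 to 82.2 ± 9.93 CPM (0.30, SE 0.10, adjusted p = 0.0312), and was not called on leaving out any one of sham libraries 1, 4 and 5 and TAC libraries 3 and 4 (adjusted p up to 0.099). Adamtsl3 (0.36, SE 0.28) and Adamtsl4 (-0.11, SE 0.16) were not called.

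Tolloid genes also split. Bmp1, the main procollagen C-proteinase (chr14:70474558-70520234), rose from 26.4 ± 4.04 to 44.3 ± 12.9 CPM (SD, n = 5 each; 0.75, SE 0.25, adjusted p = 0.0322) and was not called on leaving out any one of sham libraries 1, 3 and 4 and TAC libraries 1, 3 and 4 (adjusted p up to 0.107). Tll1 was not called (0.84, SE 0.38, adjusted p = 0.109). Tll2, which can release the growth factor myostatin from its latent form (chr19:41082753-41206835), held 1.63, 1.58, 1.64, 1.65 and 1.82 CPM in sham and 0.378, 0.404, 0.193, 0.0657 and 0.36 CPM in TAC. That is 43 to 62 counts per sham library and 2 to 11 counts per TAC library. The groups did not overlap, and the fall was -2.57 on the log2 scale (SE 0.64; adjusted p = 0.00948).

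The ear tags fall into number series, the only sign of a batch in the labels. Within the 100 series (2 TAC and 3 sham) and within the 600 series (2 TAC and 2 sham) all 20 called genes had the direction of the whole comparison, and the libraries did not overlap in 17 and 18 of them. Both the directions and the lack of overlap come from some of the libraries that made the calls, so the choice of the 20 genes favoured them. With so few libraries per series, a lack of overlap is also common without any difference. The share of all genes without overlap within a series is not given here, and these counts are no separate support. In a model that also had a term for the series 16 of the 42 were called, and Timp2, Adamtsl5, Bmp1 and Adamts4 were not (adjusted p = 0.0613, 0.0564, 0.0704 and 0.0506). The share of all genes called in that model is not given here. The PDE5A inhibitor group has no animal of the 100 series, and sham has none of the 500 series, which holds most of the PDE9A inhibitor animals, so series and treatment are partly confounded there.

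Genes that work beside the family moved as follows in TAC. Of 17 tested known substrates 15 rose, with a median log2 fold change of 1.795, and Chrd and Vwf were not called. Those of lowest adjusted p were Dcn (decorin; 0.83, SE 0.16), Comp (4.67, SE 0.93), Bgn (biglycan; 1.93, SE 0.41) and Fn1 (fibronectin; 2.13, SE 0.46). The substrates Dcn, Comp, Fn1, Col1a1 and Col1a2 are also in the fibroblast marker lists above, so the counts of these lists are not separate observations. Of 6 tested inhibitors and clearance receptors outside the TIMPs 3 rose: Cst3 (cystatin C, an inhibitor of cysteine proteases; 0.45, SE 0.09), Lrp1 (the receptor that takes up MMP, ADAMTS and TIMP proteins; 0.96, SE 0.29) and Reck (a membrane-anchored MMP inhibitor; 0.60, SE 0.20). Of 12 tested activators, enhancers and inducers 6 rose and 1 fell. Among them Pcolce (0.90, SE 0.26) and Pcolce2 (0.95, SE 0.24), which enhance the procollagen C-proteinases, and Pcsk5 (1.21, SE 0.29), a proprotein convertase, rose. The convertase Furin fell (-0.46, SE 0.10). Serpine2, counted in that list, is an inhibitor of serine proteases and rose by 0.92 (SE 0.30). Plat, a plasminogen activator, rose by 0.62 (SE 0.21). Of 9 ADAM proteases Adam19 (1.23, SE 0.24), Adam12 (1.37, SE 0.38) and Adam9 (0.63, SE 0.18) rose and Adam23 fell (-1.01, SE 0.26). These lists were chosen with earlier results of these data known.

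The rises were not equal across the TAC hearts. TAC library 4 was the highest of the 5 in 10 of the 14 risen genes and TAC library 2 the lowest in 9. TAC library 4 was also the lowest of the 5 in 4 of the 6 fallen genes. Their activated fibroblast markers summed to 5826 CPM in TAC library 4, the highest of the 5, and 937 CPM in TAC library 2, the lowest.

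The comparison of each inhibitor with untreated TAC asks whether inhibition under overload altered these genes, and in neither was a gene of the family called. In the PDE5A inhibitor group 0 of 42 were called by edgeR and 0 by DESeq2, where edgeR called 0.0141% of all genes. At an unadjusted p under 0.05 stood 2 of the 42, Timp4 and Adamts19, against 5.17% of all genes. In the PDE9A inhibitor group 0 of 42 were called by edgeR and 0 by DESeq2, where edgeR called 0.00707% of all genes, and 7 of the 42 had an unadjusted p under 0.05, against 14.6% of all genes. The lowest adjusted p of the 42 was 0.947 with the PDE5A inhibitor and 0.254 with the PDE9A inhibitor. Leaving out PDE5A inhibitor library 1 or 2, or PDE9A inhibitor library 5 or 6, also gave 0. The 2 comparisons share the TAC libraries, and TAC against sham uses them too.

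Intervals show what these group sizes could bound, all libraries included. The 95% interval of the log2 fold change against TAC lay within 1 of 0 in 26 of the 42 genes with the PDE5A inhibitor and in 29 with the PDE9A inhibitor. Mmp14 differed from TAC by -0.17 (-0.69 to 0.34) and -0.33 (-0.83 to 0.16), and Timp2 by -0.05 (-0.49 to 0.39) and 0.02 (-0.40 to 0.44). Mmp2 differed by -0.32 (-1.01 to 0.37) and -0.17 (-0.83 to 0.48). For the widely spread genes the intervals were broad: Timp1 was at -0.86 (-2.09 to 0.36) and -1.63 (-2.82 to -0.43), and Adamts8 at -0.82 (-2.03 to 0.38) and -1.70 (-2.88 to -0.51).

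**Figure D4:**
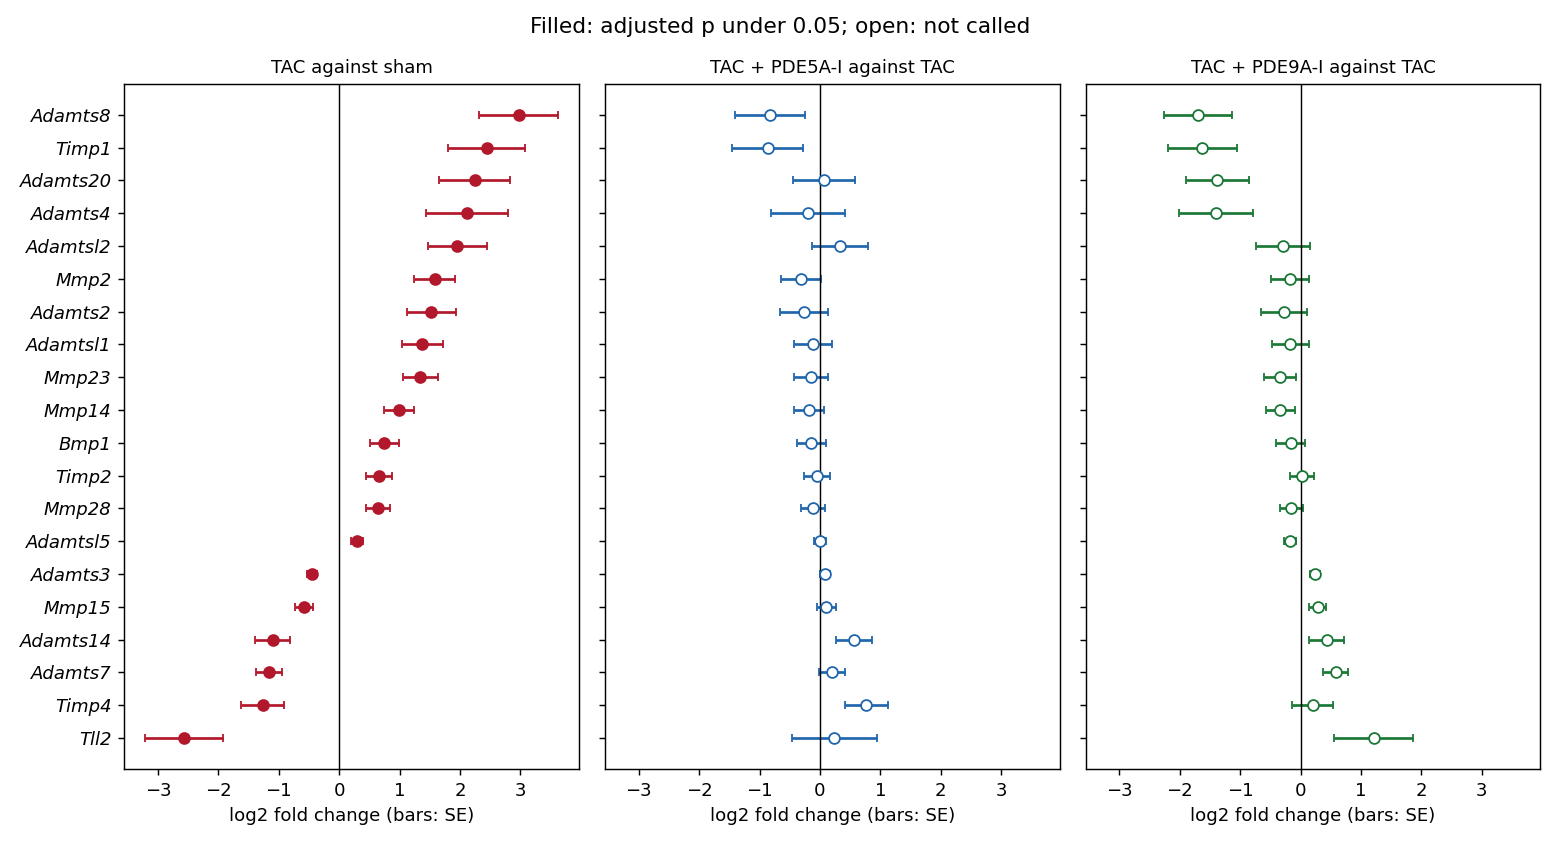
Log2 fold change of the 20 genes called in TAC against sham (left) and the same genes in each inhibitor group against TAC (middle and right), with bars for the standard error. Filled points were called and open points were not, and no gene is filled in the inhibitor panels.

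Timp1 held 4.75, 5.42, 9.81, 18.4 and 8.62 CPM in PDE5A inhibitor libraries 1 to 5. In the PDE9A inhibitor group it ran from 1.88 to 13.3 CPM with a median of 4.07 CPM. Library 6 of that group lay below every sham library and library 4 above TAC libraries 1, 2 and 5. Timp4 held 27.8, 22.3, 22.5, 21.9 and 15.96 CPM in the PDE5A inhibitor libraries, above the TAC range in 4 of the 5, with an unadjusted p of 0.0411 and an adjusted p of 0.947. In the PDE9A inhibitor group Timp4 ran from 3.68 to 25.7 CPM with a median of 15.2 CPM, both below and above the TAC range.

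Among the 7 genes with an unadjusted p under 0.05 in the PDE9A inhibitor group were Adamts8 (2.10, 3.43, 2.95, 1.78, 0.597 and 0.921 CPM in libraries 1 to 6), Adamts3 (0.24, SE 0.08) and Adamts7 (0.58, SE 0.21). The others were Timp1, Adamts20 (-1.38, SE 0.52), Adamts4 (-1.40, SE 0.61) and Adamtsl4 (0.41, SE 0.16). Their adjusted p ran from 0.254 to 0.31. Library 6 had 15 of the 20 genes called in TAC within the sham range, the most of the overloaded hearts. Without library 6 Adamts8 was at -1.56, Timp1 at -1.45 and Adamts7 at 0.49, with adjusted p of 0.466 to 0.468, and 0 of the 42 were called. Without libraries 1 and 4, those of highest Rn45s, 0 were called as well. Tll2 in this group ranged from 0 counts in library 4, which allows up to 3 counts, to 44 counts in library 6, where its level of 1.84 CPM lay just above the highest sham library.

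The inhibitors were also set against each other, at doses not given here. No gene of the 42 was called by edgeR, where edgeR called 0.00707% of all genes, and none by DESeq2. An unadjusted p under 0.05 was seen for 3, against 10.4% of all genes. Adamtsl4 was at 25.0 ± 6.33 CPM with sildenafil and 35.0 ± 6.42 CPM with PF-04449613 (log2 difference -0.49, 95% interval -0.81 to -0.16, adjusted p = 0.345). Adamts20 was at 2.26 ± 1.797 and 0.800 ± 0.595 CPM (1.45, 0.36 to 2.53, adjusted p = 0.361). Adamts9 was at 35.0 ± 7.51 and 26.0 ± 4.45 CPM (0.43, 0.06 to 0.80, adjusted p = 0.404). The interval lay within 1 of 0 in 31 of the 42 genes and reached it in 11, among them Timp1 (0.76, -0.43 to 1.96) and Tll2 (-0.97, -2.28 to 0.34). For those 11 a difference of that size was not excluded by these libraries. Without PDE5A inhibitor library 1 or 2, without PDE9A inhibitor library 5 or 6, or without PDE9A inhibitor libraries 1 and 4 together, 0 of the 42 were called. Over these Adamtsl4 ran from -0.55 to -0.35, Adamts20 from 1.22 to 1.70 and Adamts9 from 0.38 to 0.52 (adjusted p 0.193 to 0.576).

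Each treated group was also set against sham. In the PDE5A inhibitor group 9 of the 42 rose and 4 fell, where 14.6% of all genes were called (6.81% higher and 7.8% lower). At an unadjusted p under 0.05 stood 19 of the 42, against 32.8% of all genes, and 12 did not overlap, against 15.6%. Those that rose were Adamtsl2 (2.30, SE 0.49), Adamts20 (2.31, SE 0.59), Adamts8 (2.15, SE 0.65), Mmp2 (1.26, SE 0.34), Adamtsl1 (1.26, SE 0.34), Adamts2 (1.26, SE 0.41), Mmp23 (1.19, SE 0.29), Mmp14 (0.81, SE 0.25) and Adamtsl5 (0.30, SE 0.10). Tll2 (-2.34, SE 0.62), Adamts7 (-0.96, SE 0.22), Mmp15 (-0.47, SE 0.15) and Adamts3 (-0.36, SE 0.08) fell. Timp1 (1.58, SE 0.63, adjusted p = 0.089), Timp2 (0.61, SE 0.21, adjusted p = 0.0564) and Timp4 (-0.50, SE 0.35, adjusted p = 0.322) were not called. The count was 6, 7, 8, 8 and 13 without sham libraries 1 to 5 in turn and 14, 15, 7, 4 and 5 without PDE5A inhibitor libraries 1 to 5. A model that also had a term for the ear tag series called 0, and one with no low-count filter called 8. The share of all genes called in these settings is not given here, so a shift of the whole table cannot be told apart from one of this family. Whether a treated group differs from TAC is tested by the comparison with TAC, not by these counts.

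In the PDE9A inhibitor group 2 of the 42 rose against sham, where 3.82% of all genes were called (2.17% higher and 1.65% lower): Mmp2 (1.41, SE 0.33, adjusted p = 0.0298) and Adamtsl1 (1.20, SE 0.33, adjusted p = 0.048). Mmp2 held 147, 112, 298, 284, 87.0 and 65.7 CPM in libraries 1 to 6, from the sham range in library 6 to above every TAC library in libraries 3 and 4. Adamtsl1 held 5.47, 2.19, 2.31, 6.78, 3.74 and 1.93 CPM. At an unadjusted p under 0.05 stood 17 of the 42, against 27.2% of all genes. These libraries overlapped with sham in all 42 genes, and 3.47% of all genes had no overlap. The count rested on single libraries. Without PDE9A inhibitor libraries 1 to 6 in turn it was 1, 5, 0, 0, 8 and 14, and without sham libraries 1 to 5 it was 0, 0, 0, 0 and 1. Without library 6 Mmp2 was at 1.58 and Adamtsl1 at 1.34 (adjusted p = 0.00666 and 0.0176). Without libraries 1 and 4 together, and in a model with a term for the ear tag series, the count was 0. DESeq2 called 8 genes of the family and 1529 in the whole table. For the other settings the share of all genes called is not given here. A shift of this family cannot be told apart there from a shift of the whole table.

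The hearts of each treated group differed widely. Of the 20 genes called in TAC, 15 lay within the sham range in PDE9A inhibitor library 6 and 8 in library 5, against 1 to 4 in libraries 1 to 4. In PDE5A inhibitor libraries 1 to 5 the numbers were 5, 7, 1, 2 and 1, and in the TAC libraries, which made the calls, 0, 5, 1, 1 and 2. The 5 genes outside the sham range in PDE9A inhibitor library 6 were Adamtsl2 and Timp1, below every sham library, and Mmp15, Mmp28 and Tll2, above every sham library. Only Mmp28 among them was on the side of its change in TAC. Library 6 was the lowest of its group in 10 of the 14 genes risen in TAC and the highest in all 6 fallen ones. PDE5A inhibitor library 2 was the lowest of its group in 10 of the 14. Activated fibroblast markers ran beside this, from 359 CPM in PDE9A inhibitor library 6 and 585 CPM in library 5 to 2902 and 2838 CPM in libraries 3 and 4, and from 680.0 CPM in PDE5A inhibitor library 2 to 3512 CPM in library 4. Their part in the spread of these genes was not tested.

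**Figure D5:**
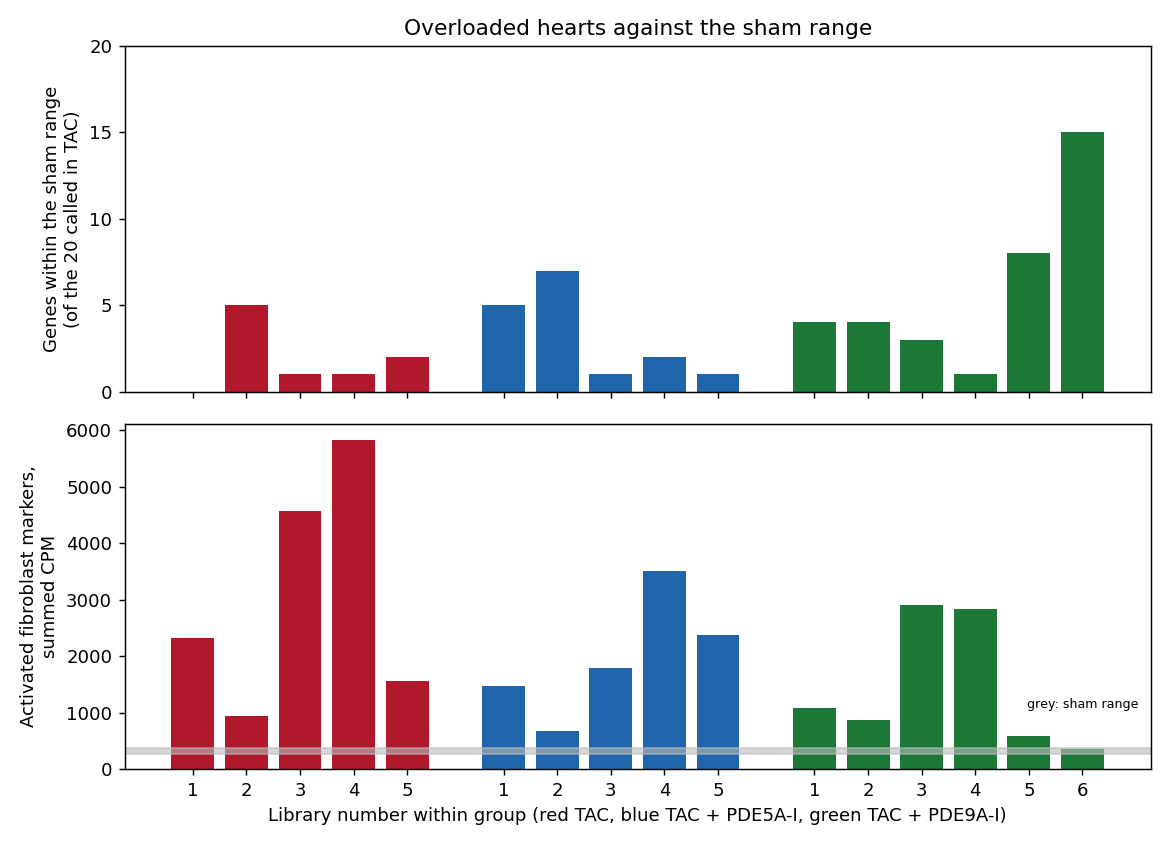
Number of the 20 genes called in TAC whose level lies within the range of the 5 sham libraries (top) and summed CPM of 10 activated fibroblast markers (bottom), 1 bar per overloaded heart, with the sham range of the sum in grey. PDE9A inhibitor library 6 has 15 genes within the sham range and a marker sum of 359 CPM, inside the grey band.

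The remaining genes of the 54 were too scarce to test. Adamts16 reached 27 counts (0.887 CPM) in TAC library 4, Mmp24 14 counts, Mmp27 13 counts, Mmp8 and Mmp25 8 counts each, Adamts18 3 counts, and Mmp10 and Mmp21 1 count. Where all 21 libraries had 0 counts, each allows up to 3 counts, so a low level is not excluded at this depth.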

How the data were processed

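Left ventricle RNA of 21 mice was measured in 4 groups taken from the sample labels. The deposited values are expected counts per gene symbol, made by the authors and not scaled between libraries, per the file headers and values. The submitters' processing notes name RSEM 1.3.0 and HISAT2 2.0.5, besides CASAVA 1.8.4, DESeq2 1.18.1 and the build mm10, without their roles. The kit was stranded, and 500 ng of RNA was used, per the labels' protocols. Expected counts (19% with decimals) were rounded. Genes were filtered by filterByExpr (14135 kept), TMM-scaled and fitted in 1 edgeR 4.0.16 quasi-likelihood model over all groups (R 4.3.3, limma 3.58.1). P-values were adjusted over all genes tested in each of 6 comparisons and called at 0.05. Intervals are 95% t intervals with the model's degrees of freedom. The procedure was tested on simulated data. Lengths and coordinates are from GENCODE M21 (GRCm38), to which all 54 symbols matched. Animals are the replicates. Libraries held 22.7 to 41.0 M counts, and limits given for 0 counts cover counting error only.

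The gene set, classes and lists were chosen with earlier results of these data known. Named with values were every called gene of the set, Mmp2, Mmp9, Mmp14, the TIMPs, Adamts1, Adamts2, Adamts4, Adamts5 and Bmp1, and up to 4 called genes of lowest adjusted p per pathway list. Pathway genes past that number, Acta2, Cd163 and Myh7 were named after their values were seen. Every library's value is given for the 12 genes of lowest adjusted p in TAC against sham and the TIMPs. Alternatives were DESeq2 1.42.0, other size factors, no filter, the compared groups alone, a replicate block, the ear tag series and leaving out each library. Leaving out the 2 libraries of highest Rn45s was added after seeing the data. Some genes of the lists are not reported here.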

Additional observations from a re-analysis of the deposited data

Results flagged for a closer look

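In 27 genes of the set named with values, 108 groups of 5 or 6 libraries were examined for a library whose gap to its nearest neighbour was large against the whole range of its group (Dixon's 95% limit). This marked 7, and chance marks about 1 in 20. In the PDE9A inhibitor group, Adamts1 was 141 CPM in library 1 (55.0 to 86.2 CPM in the others), a library of high Rn45s, and Adamts20 was 1.96 CPM in library 3 (0.398 to 0.924 CPM). In TAC, Mmp28 was 5.63 CPM in library 1 (3.60 to 4.00 CPM). In sham, Adamts3 was 10.9 CPM in library 1 (9.72 to 9.87 CPM) and Tll2 was 1.82 CPM in library 5 (1.58 to 1.65 CPM), both on the side away from TAC. Sham library 3 was low in Mmp15 at 89.2 CPM (107 to 114 CPM) and in Adamtsl4 at 23.7 CPM (29.0 to 30.0 CPM). The wide TAC values of Timp1, Adamts4 and Adamts8 were not marked by this limit.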

How the results depend on the processing

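In TAC against sham the count of called genes stayed within 1.5 times of 20 under every alternative (14 to 22 leaving out 1 library, 22 with DESeq2, 21 with the replicate block), no called value changed sign, and 13 of the 20 kept their call in all 16 alternatives. The 7 that lost it in some are named with their values in the report. In the PDE5A inhibitor group against sham the count of 13 was 8 with no low-count filter and 0 in a model with the ear tag series, and 4 to 15 leaving out 1 library. In the PDE9A inhibitor group against sham the count of 2 was 8 with DESeq2, 1 with no low-count filter, 0 with the 2 compared groups alone, 0 with the ear tag series, 0 without the 2 libraries of highest Rn45s, and 0 to 14 leaving out 1 library. The cause was not tested. DESeq2 called 4139 genes of the whole table in TAC, 2759 in the PDE5A inhibitor group and 1529 in the PDE9A inhibitor group, each against sham. For the other alternatives the share of all genes is not given, so these shifts cannot be told apart from shifts of the whole table. Against TAC, and between the inhibitors, 0 were called under every alternative run. With the replicate number as a block, the counts against sham were 21 (TAC), 15 (PDE5A inhibitor) and 13 (PDE9A inhibitor). Same-numbered libraries had deviations that correlated at -0.225 to 0.564, over 0.1 in 8 of 30 pairs, and each animal has its own ear tag, so the samples share only a number. Low counts limit Tll2 (2 to 11 per TAC library), Adamts14 (5 to 20 per TAC library) and Adamts20 (10 to 16 per sham library).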

Other observations

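Adamts16, which was too scarce for the main test, is named here after its values were seen. It had 0, 0, 1, 0 and 0 counts in sham libraries 1 to 5 and 2, 0, 7, 27 and 1 counts in TAC libraries 1 to 5. In the PDE5A inhibitor libraries it had 2, 2, 3, 10 and 7 counts, and in the PDE9A inhibitor libraries 3, 0, 9, 1, 0 and 0 counts. DESeq2, which applies another filter, called it in TAC and in the PDE5A inhibitor group against sham. TAC library 4, the highest, is also the library of highest Timp1, Adamts4 and Adamts8.

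B cell genes were scarce, and among them Cd79a and Cd79b, parts of the B cell receptor, and the surface gene Ms4a1 rose in TAC. Cd79b was at 0.640 ± 0.134 CPM in sham and 1.34 ± 0.33 CPM in TAC (n = 5 each, SD), which is 1.05 on the log2 scale (SE 0.20; adjusted p = 0.00317, edgeR's quasi-likelihood test). The T cell genes Cd4, Cd8a and Lck were not called.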
